A study of Mus musculus with 4 samples.

Results

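Chemokines and their receptors are described here as carriers of trimethylated lysine 27 of histone H3 (H3K27me3) in mouse alveolar macrophages. Members were chosen by symbol: Ccl and Cxcl genes with a number, Ccr and Cxcr receptors, Cx3cl1, Cx3cr1, Xcl1, Xcr1, the atypical receptors Ackr1 to Ackr4 and Ccrl2. The rule found 63 of the 27095 genes in the count table, namely 40 ligand genes (the pseudogene Ccl19-ps1 among them), 18 receptors and 5 atypical receptors. They lie in 31 places in the genome when members at most 500 kb apart are joined, and 10 of these places hold 42 members. The assay, Cut&Tag, tethers a transposase to chromatin bound by an anti-H3K27me3 antibody, and the nearby DNA is cut and tagged for sequencing.

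Lethally irradiated C57BL/6-Ly5.1 hosts had received marrow that was 90% Suz12 cKO Ly5.2 with 10% wild-type Ly5.1 (Suz12 cKO, 2 libraries), or 90% wild-type Ly5.2 with 10% wild-type Ly5.1 (wild type, 2 libraries). Both genotypes therefore shared irradiation and an admixture of wild-type Ly5.1 cells, and no source used here says whether Ly5.2 cells were separated before the assay. Suz12 is a core subunit of Polycomb repressive complex 2, the enzyme that places H3K27me3. The Cre, the deleted part of Suz12 and the animals' ages are also not stated. Each library came from 100000 sorted cells on a C57BL/6 background and is labelled a biological replicate. Library totals were 3331138 and 3567282 counts in Suz12 cKO, against 2592297 and 2142175 counts in wild type. The Suz12 window held 11 and 10 counts in Suz12 cKO and 8 and 10 in wild type, which is a level of the mark and does not check the deletion. A reading of H3K27me3 does not show transcription, and in bulk chromatin fewer marked cells and less mark per cell cannot be told apart.

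Chemokines are small secreted proteins that steer leukocytes through G protein-coupled receptors. Inflammatory chemokines (Ccl2, Ccl3, Cxcl1, Cxcl2) are made by stimulated cells, macrophages included, whereas homeostatic ones (Cxcl12, Cxcl13, Ccl19, Ccl21) are made largely by stromal cells and keep lymphoid tissue in order. Atypical receptors bind chemokines without the usual G protein signal and remove or hold them. Many of these genes arose by tandem duplication, so neighbours in a cluster are often close relatives. H3K27me3 marks silent genes and is best known at silent developmental genes with CpG-rich promoters.

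Promoters of 8 members are shown because the mark they carry spans nearly the whole range of the family and because Cx3cl1, which gained the mark, and its receptor Cx3cr1 are among them. Each is the RefSeq sequence on GRCm38.p6 from 250 bases before to 50 after a start listed for the gene. Where several starts were listed, the one with the most CpGs was taken. The Ccr2 and Cxcl14 stretches lie wholly within the span of the gene in the reference. All are read 5′ to 3′ on the gene's strand, with CpG dinucleotides in capitals. Cxcl12, Cxcl14 and Cx3cl1 had 20, 22 and 19 CpGs, whereas Cxcr3, Ccl1 and Cx3cr1 had 4, 7 and 5. Cxcl2 and Ccr2, which carried little of the mark, had 11 and 1.
Cxcl12 (chr6:117168285-117168584, plus strand): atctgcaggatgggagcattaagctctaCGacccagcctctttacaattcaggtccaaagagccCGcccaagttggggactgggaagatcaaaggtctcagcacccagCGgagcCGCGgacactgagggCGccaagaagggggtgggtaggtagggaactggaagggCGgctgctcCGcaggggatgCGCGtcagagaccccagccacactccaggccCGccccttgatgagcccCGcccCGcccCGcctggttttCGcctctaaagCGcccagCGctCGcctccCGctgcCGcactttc
Cxcl14 (chr13:56296502-56296801, minus strand): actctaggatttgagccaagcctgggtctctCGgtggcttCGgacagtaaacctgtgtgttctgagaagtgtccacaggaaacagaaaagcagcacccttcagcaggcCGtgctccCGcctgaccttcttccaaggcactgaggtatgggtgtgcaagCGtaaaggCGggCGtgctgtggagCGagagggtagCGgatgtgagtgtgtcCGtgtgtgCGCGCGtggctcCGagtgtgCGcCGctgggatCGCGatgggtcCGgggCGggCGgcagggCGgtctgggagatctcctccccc
Cx3cl1 (chr8:94771930-94772229, plus strand): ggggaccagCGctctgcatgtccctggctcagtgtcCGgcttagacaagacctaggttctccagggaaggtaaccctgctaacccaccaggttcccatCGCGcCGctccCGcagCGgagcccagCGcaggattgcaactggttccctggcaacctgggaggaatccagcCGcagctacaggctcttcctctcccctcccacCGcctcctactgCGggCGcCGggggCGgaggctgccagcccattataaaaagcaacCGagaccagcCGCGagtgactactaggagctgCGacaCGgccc
Cxcr3 (chrX:101734098-101734397, minus strand): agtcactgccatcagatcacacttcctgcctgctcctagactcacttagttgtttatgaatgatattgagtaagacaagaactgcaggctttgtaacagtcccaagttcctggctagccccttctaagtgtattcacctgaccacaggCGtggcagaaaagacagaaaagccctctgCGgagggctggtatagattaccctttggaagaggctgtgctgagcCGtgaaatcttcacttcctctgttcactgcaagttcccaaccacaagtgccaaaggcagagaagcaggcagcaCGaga
Ccl1 (chr11:82179763-82180062, minus strand): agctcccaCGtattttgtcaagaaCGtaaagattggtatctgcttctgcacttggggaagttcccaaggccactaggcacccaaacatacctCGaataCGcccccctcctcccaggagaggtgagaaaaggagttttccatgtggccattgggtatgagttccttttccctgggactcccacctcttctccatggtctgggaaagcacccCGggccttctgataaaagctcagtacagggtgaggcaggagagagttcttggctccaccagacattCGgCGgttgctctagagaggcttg
Cx3cr1 (chr9:120068247-120068546, minus strand): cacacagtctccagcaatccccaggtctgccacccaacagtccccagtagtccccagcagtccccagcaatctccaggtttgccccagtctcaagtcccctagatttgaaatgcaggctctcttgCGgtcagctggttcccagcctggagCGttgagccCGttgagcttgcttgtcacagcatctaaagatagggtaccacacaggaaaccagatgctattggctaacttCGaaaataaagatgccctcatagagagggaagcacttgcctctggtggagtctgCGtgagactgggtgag
Cxcl2 (chr5:90903649-90903948, plus strand): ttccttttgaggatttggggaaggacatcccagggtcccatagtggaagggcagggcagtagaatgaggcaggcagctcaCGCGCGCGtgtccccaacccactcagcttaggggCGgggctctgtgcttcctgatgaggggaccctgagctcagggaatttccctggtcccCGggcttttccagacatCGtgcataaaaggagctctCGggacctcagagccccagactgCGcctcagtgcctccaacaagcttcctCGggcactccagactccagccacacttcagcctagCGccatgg
Ccr2 (chr9:124101933-124102232, plus strand): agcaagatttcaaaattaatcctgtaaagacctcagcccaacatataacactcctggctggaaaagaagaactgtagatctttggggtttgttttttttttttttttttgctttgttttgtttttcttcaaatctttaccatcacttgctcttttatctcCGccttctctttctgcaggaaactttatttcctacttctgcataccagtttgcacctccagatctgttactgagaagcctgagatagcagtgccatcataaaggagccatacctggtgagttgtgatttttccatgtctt

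Across the family the mark was uneven. The level is given as CPM, which is counts per 1000000 of a library size scaled with TMM factors, per kb of the counted window, which is the gene with 3 kb on each side. The median over all 63 members was 0.242 CPM per kb in Suz12 cKO and 0.226 in wild type, against 0.213 and 0.216 over all 27095 genes. Ligand genes had medians of 0.407 in Suz12 cKO and 0.294 in wild type, receptors 0.154 and 0.136, and the 5 atypical receptors 2.09 and 2.12. These medians mix a few heavily marked genes with many that were close to empty. Of the 63, 9 (14.3%) stood above the 90th percentile of all windows, at 2.339 CPM per kb, and 31 stood below the median of all windows. The 9 were Cxcr3, Cxcl12, Ccl24, Ccl26, Ccl1, Ackr3, Ccr7, Cxcl14 and Ackr1, and they held 68.9% of the members' counts in Suz12 cKO and 65.2% in wild type. All members together took 0.0977% and 0.0937% of the counts in Suz12 cKO and 0.0927% and 0.0912% in wild type.

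**Figure D1:**
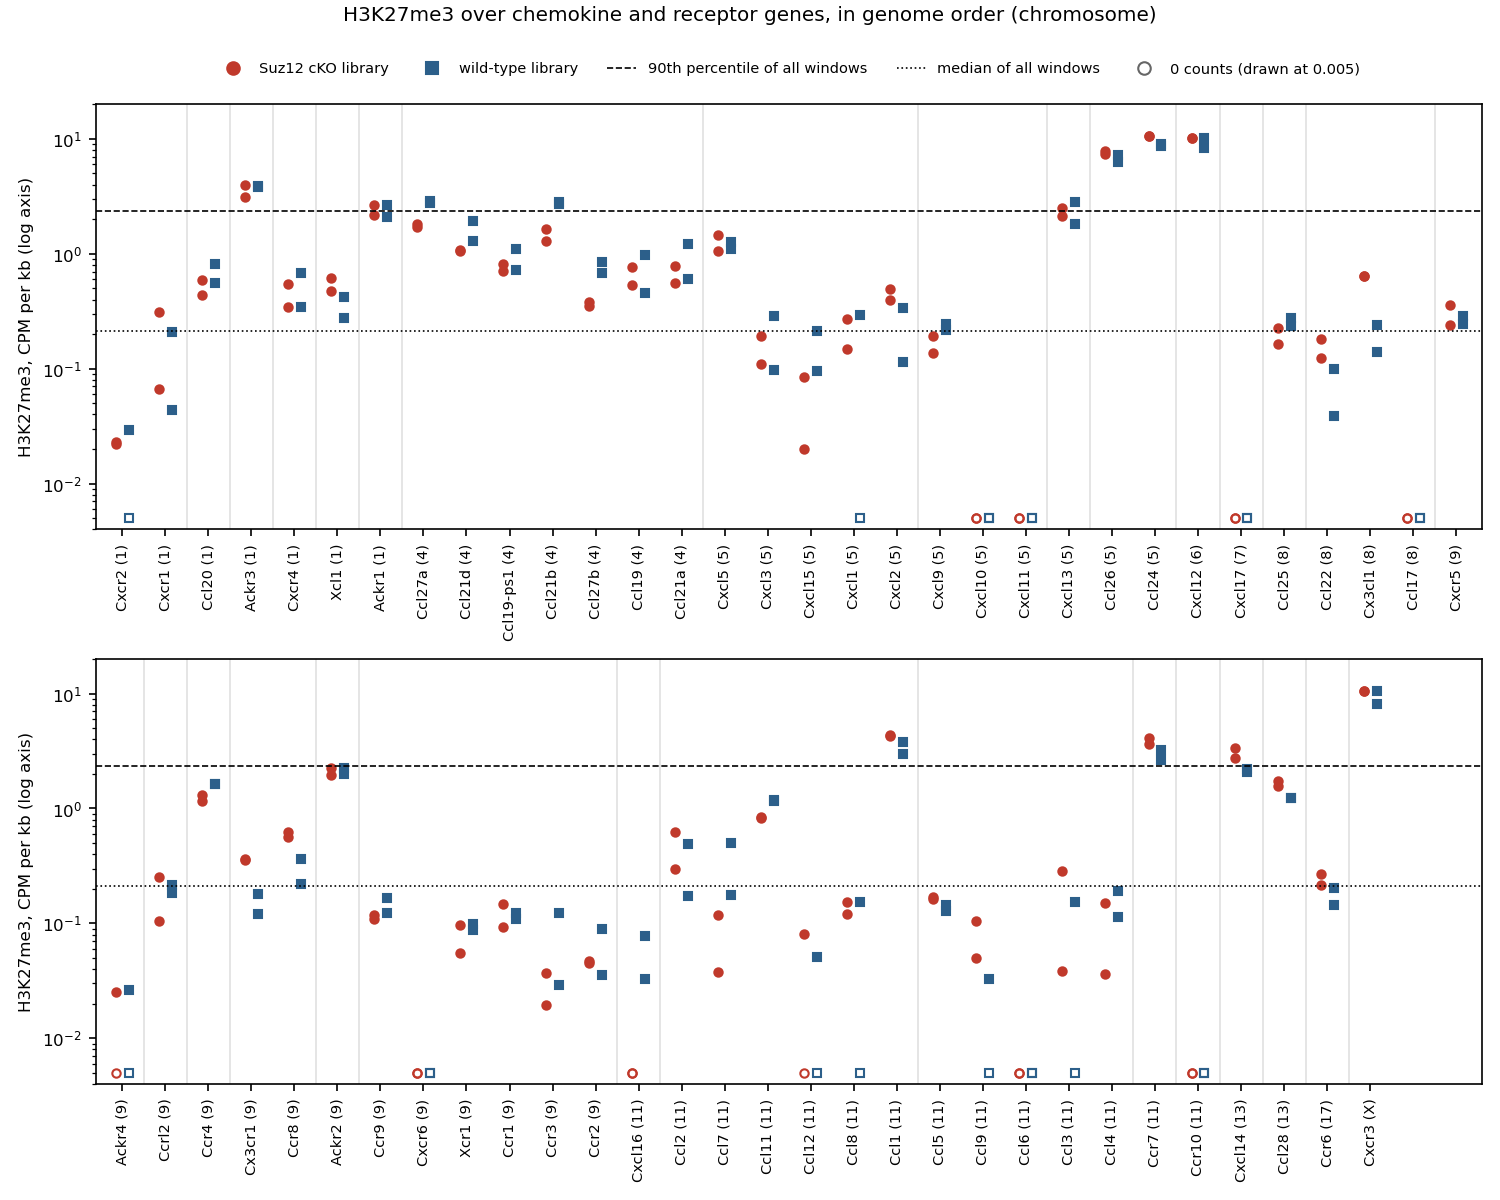
H3K27me3 in CPM per kb (log axis) at the members in genome order, with the chromosome in brackets, for 2 Suz12 cKO libraries (circles) and 2 wild-type libraries (squares). Open symbols are libraries with 0 counts, and the dashed and dotted lines are the 90th percentile (2.339) and the median (0.213) of all windows. Cxcr3, Cxcl12 and Ccl24 lie near 10 CPM per kb in both genotypes, while the chromosome 9 receptors from Ccr9 to Ccr2 stay under the median in every library.

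Between genotypes, 3 members changed. Cx3cl1, the membrane-bound chemokine fractalkine, gained the mark, and Ccl27a and Ccl21b, ligands of skin- and lymph node-homing T cells, lost it. Differences were tested by edgeR's quasi-likelihood test over the 16752 windows that passed a filter on low counts, with Benjamini-Hochberg adjustment over all of them. Of the 63 members, 32 passed the filter, namely 21 ligands, 8 receptors and 3 atypical receptors. Over all tested genes 6.42% were called at an adjusted p below 0.05, with 4.46% gained and 1.96% lost in Suz12 cKO. Read against those shares, 1 gain and 2 losses of 32 are no result about the family as a whole. At an unadjusted p below 0.05 there were 8 members of 32, against 18.5% of all tested genes.

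The median log2 fold change of the tested members, Suz12 cKO over wild type, was 0.06, against -0.01 over all tested genes. Ligands had a median of 0.03 and receptors with atypical receptors one of 0.16. Both Suz12 cKO libraries stood above both wild-type libraries at 12 tested members and below both at 7, and 13 overlapped. Over all tested genes the groups were separate in each of these directions at 23.8% of windows. CPM is relative to the library, so a loss of the mark shared by all genes would not appear in these values.

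**Figure D2:**
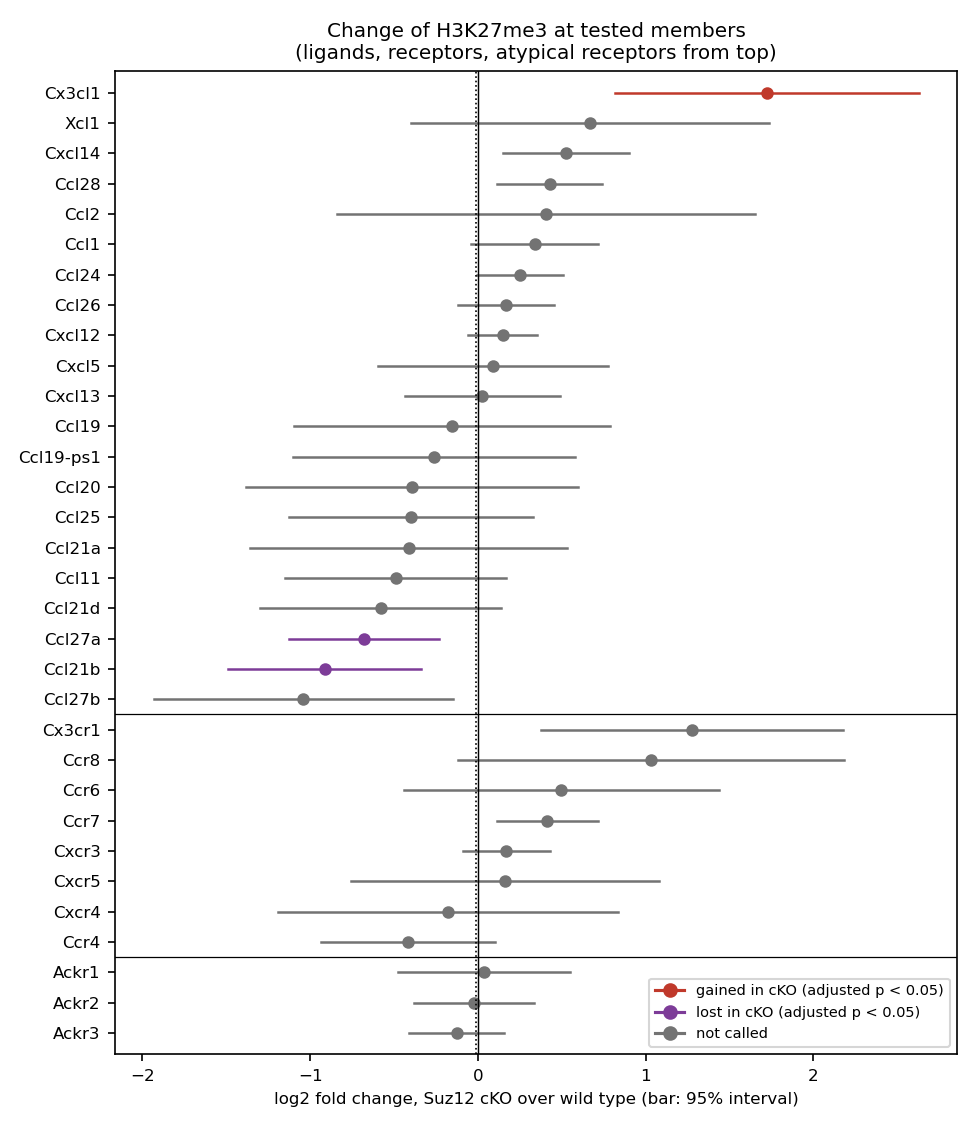
Log2 fold change of H3K27me3 (Suz12 cKO over wild type) with its 95% interval at the 32 tested members, ordered within ligands, receptors and atypical receptors from the top. The dotted line is the median of all tested genes (-0.01). The interval of Cx3cl1 lies above 0, those of Ccl27a and Ccl21b lie below 0, and grey intervals belong to members that were not called.

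Cx3cl1 had 34 and 36 counts in Suz12 cKO, against 10 and 5 in wild type. In CPM this was 10.4 and 10.5 in Suz12 cKO and 3.88 and 2.29 in wild type, with means of 10.5 ± 0.0833 and 3.08 ± 1.12 (SD, n = 2 each). The groups did not overlap, and the spread between the wild-type libraries was smaller than the gap. On wild-type counts alone the window would not have passed the low-count filter, so this separation is not independent of the filter. The log2 fold change was 1.72 ± 0.46 (SE; 95% interval 0.82 to 2.63; edgeR adjusted p = 0.00719). The call rests on few counts: the adjusted p was 0.0706 without Suz12 cKO replicate 2 and 0.105 without wild-type replicate 2, where the log2 fold change was 1.42. The gene lies at chromosome 8, 94772180 to 94782427 (GRCm38.p6), and its window is overlapped by no other. Even in Suz12 cKO its level of 0.643 CPM per kb was well below the 90th percentile of all windows. Within the same 500 kb cluster Ccl22, a ligand of Ccr4 made by dendritic cells and macrophages, had 7 and 5 counts in Suz12 cKO and 3 and 1 in wild type. Its other neighbour in the cluster, Ccl17, also a Ccr4 ligand, had 0 counts in all 4 libraries, which allows up to 0.901 and 0.841 per 1000000 of the library total in Suz12 cKO and 1.157 and 1.4 in wild type (3 counts, counting error only).

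Cx3cr1, the only known receptor of Cx3cl1 and a gene of monocytes and many tissue macrophages, had 30 and 32 counts in Suz12 cKO, against 8 and 10 in wild type. Its CPM were 9.17 and 9.35 in Suz12 cKO and 3.10 and 4.58 in wild type, again without overlap. The log2 fold change of 1.28 ± 0.46 (SE; 95% interval 0.38 to 2.18) missed the threshold at an edgeR adjusted p of 0.0736. Ccr8, the receptor of Ccl1, lies beside it on chromosome 9. It had 18 and 17 counts in Suz12 cKO and 5 and 7 in wild type (1.03 ± 0.59, adjusted p = 0.342). At each receptor both Suz12 cKO values stood above both wild-type values, and neither was called. Such separation above wild type was seen at 23.8% of all tested windows. On wild-type counts alone neither window would have passed the low-count filter. The separation is therefore not independent of the filter and is no evidence of a change. The genes on either side did not share one sign: Xirp1 had a log2 fold change of 0.56 (adjusted p = 0.188) and Slc25a38 one of -1.76 (adjusted p = 0.0721).

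**Figure D3:**
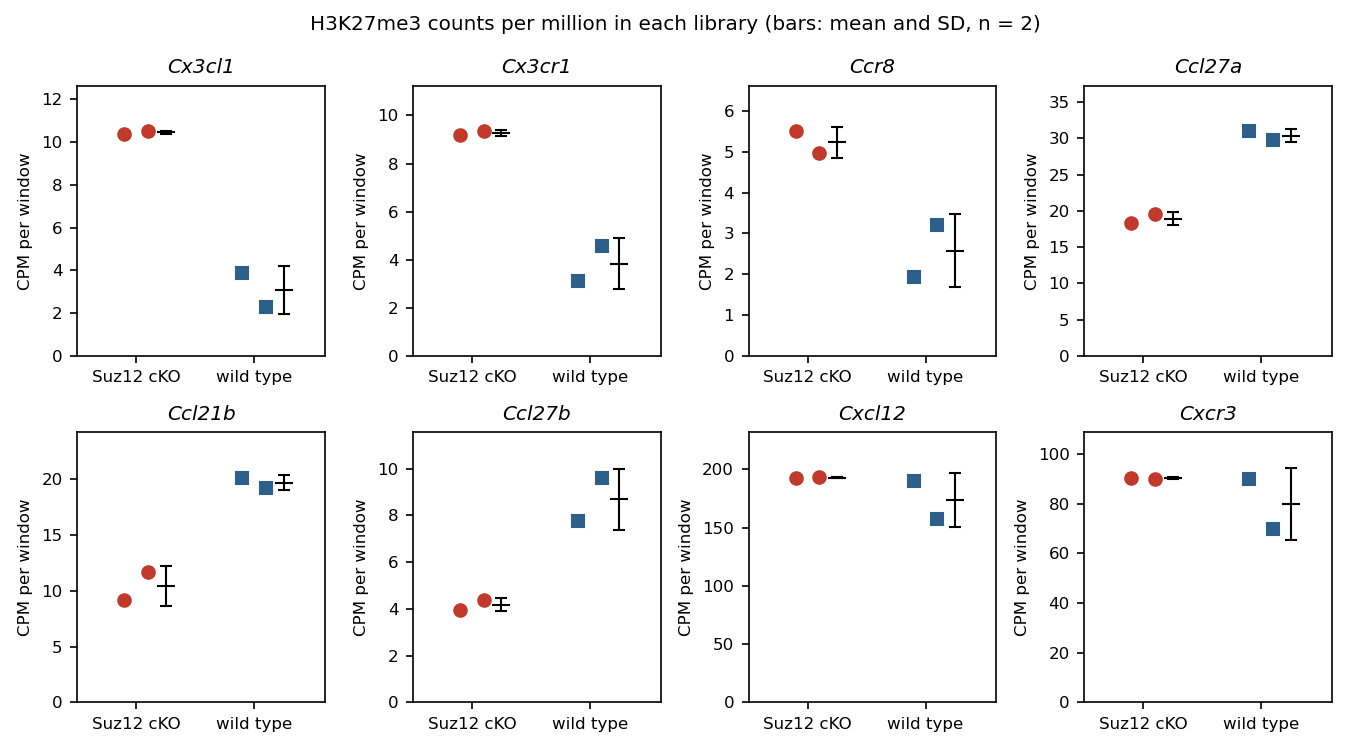
H3K27me3 in CPM per window in each library at 8 members, with Suz12 cKO circles left of wild-type squares and bars for mean and SD (n = 2). Cx3cl1, Cx3cr1 and Ccr8 are higher in both Suz12 cKO libraries, Ccl27a, Ccl21b and Ccl27b are lower, and at Cxcl12 and Cxcr3 one wild-type library lies close to the Suz12 cKO values.

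The 2 losses lie together on chromosome 4, in a region of tandem copies that holds 7 members from Ccl27a to Ccl21a. Ccl27a, a skin chemokine that attracts T cells through Ccr10, had 18.3 and 19.6 CPM in Suz12 cKO, against 31.0 and 29.8 in wild type. Its log2 fold change was -0.68 ± 0.23 (SE; 95% interval -1.13 to -0.23; edgeR adjusted p = 0.0491). Ccl21b, a copy of the Ccr7 ligand that guides dendritic and T cells into lymph nodes, had 9.17 and 11.7 CPM in Suz12 cKO and 20.2 and 19.2 in wild type. It fell by 0.91 ± 0.29 on the log2 scale (95% interval -1.49 to -0.34; adjusted p = 0.0357). In both genes the groups were separate below wild type, as at 23.8% of all tested windows. Ccl27b, a second copy of Ccl27, had 3.97 and 4.38 CPM in Suz12 cKO and 7.76 and 9.62 in wild type, with a log2 fold change of -1.04 ± 0.46 that did not pass (adjusted p = 0.178).

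The other members of the region, Ccl21d, Ccl19-ps1, Ccl19 and Ccl21a, had log2 fold changes between -0.58 and -0.16 and were not called, so that all 7 values were negative. Housekeeping scaling, which moved the median of all genes by 0.33, put Ccl19 and Ccl19-ps1 at 0.18 and 0.08, and relative to that shift they were at -0.15 and -0.26. Of 19 other tested windows between these genes, most of them predicted genes, 17 had a negative value, 2 a positive one, and 1 (Gm13305) was called lost (-0.66, adjusted p = 0.00302). Just outside, Arid3c gained the mark (0.49, adjusted p = 0.00303). Copies of Ccl21, Ccl27 and Ccl19 are nearly identical, and no source used here says how 36-bp reads were divided among them, so these values are uncertain. The reference span of Ccl21b is 83.7 kb whereas the deposited window is 7095 bp long, and 55.8% of the Ccl27a window is overlapped by others. Both calls were lost when any 1 of the 4 libraries was left out, with adjusted p of 0.119 to 0.223 for Ccl27a and 0.0916 to 0.251 for Ccl21b, while the log2 fold changes stayed between -0.73 and -0.64 and between -1.10 and -0.75. Housekeeping scaling left neither Ccl27a nor Ccl21b called (adjusted p = 0.425 and 0.238).

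Among ligands, Cxcl12 and Ccl24 carried the most mark. Cxcl12, which holds stem cells and leukocytes in their niches through Cxcr4, had 10.2 and 10.2 CPM per kb in Suz12 cKO, against 10.1 and 8.34 in wild type. It had a log2 fold change of 0.15 ± 0.11 (95% interval -0.06 to 0.36; adjusted p = 0.497). It stands alone: the nearest genes, Tmem72 at 451.6 kb and Zfp637 at 659.2 kb, were at the 56.8th and 57.6th percentiles of all windows. Its signalling receptor Cxcr4 was far lower, at 0.545 and 0.347 CPM per kb in Suz12 cKO and 0.346 and 0.680 in wild type (-0.18 ± 0.52, adjusted p = 0.91). Its scavenging receptor Ackr3 was high again, at 3.95 and 3.13 CPM per kb in Suz12 cKO and 3.84 and 3.88 in wild type (-0.13 ± 0.14, adjusted p = 0.705). Both genotypes showed this order of ligand, scavenger and signalling receptor.

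The eotaxins are eosinophil attractants that share the receptor Ccr3. Ccl24 had 10.5 and 10.6 CPM per kb in Suz12 cKO, against 9.03 and 8.65 in wild type (0.25 ± 0.13, adjusted p = 0.283). Ccl26, its neighbour on chromosome 5, named an eotaxin after its human counterpart, had 7.37 and 7.81 in Suz12 cKO and 6.33 and 7.23 in wild type (0.17 ± 0.15, adjusted p = 0.59). Neither was called. In both genes the groups were separate above wild type, as at 23.8% of all tested windows. The third eotaxin, Ccl11, lies on chromosome 11 and had lower levels of 0.825 and 0.840 CPM per kb in Suz12 cKO and 1.15 and 1.19 in wild type (-0.49 ± 0.34, adjusted p = 0.466). Ccr3 itself was nearly empty, at the 16.3rd percentile of all windows. The gene before Ccl26, Hip1, stood at the 87.7th percentile and the gene after Ccl24, Rhbdd2, at the 49.2nd.

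Further ligand genes, from epithelial to B cell attractants, were not called. Cxcl14, a chemokine of epithelia with no agreed receptor, had 3.36 and 2.77 CPM per kb in Suz12 cKO, against 2.06 and 2.21 in wild type (0.52 ± 0.19, adjusted p = 0.0813). It lies 36.5 kb from Neurog1, a neuronal regulator at the 99.9th percentile with 21.5 CPM per kb in either genotype. Ccl28, a mucosal ligand of Ccr10 and Ccr3, had 1.58 and 1.73 CPM per kb in Suz12 cKO and 1.23 and 1.23 in wild type (0.43 ± 0.16, adjusted p = 0.0899). Neither passed the threshold. The groups were separate above wild type in both, which was so at 23.8% of all tested windows. Next to Ccl28, 13.4 kb away, Tmem267 lost the mark (-0.76, adjusted p = 4.17e-06), which is the opposite sign. Cxcl13, which draws B cells into follicles through Cxcr5, had 2.51 and 2.13 CPM per kb in Suz12 cKO and 1.80 and 2.80 in wild type (0.03 ± 0.23, adjusted p = 0.971). Ccl20, the ligand of Ccr6, had 0.437 and 0.591 in Suz12 cKO and 0.554 and 0.817 in wild type. Its log2 fold change of -0.40 ± 0.51 had an adjusted p of 0.746. Ccl25, the gut and thymus ligand of Ccr9, was among the lowest tested members at 0.225 and 0.165 in Suz12 cKO and 0.276 and 0.236 in wild type (-0.40 ± 0.37, adjusted p = 0.626). Xcl1, the ligand of Xcr1, had 0.620 and 0.474 in Suz12 cKO and 0.275 and 0.418 in wild type (0.67 ± 0.54, adjusted p = 0.563). Cxcl16, a membrane-bound ligand of Cxcr6, had 0 counts in both Suz12 cKO libraries and 1 and 2 in wild type, in a wholly overlapped window.

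The chromosome 11 cluster of monocyte chemoattractants, Ccl2 to Ccl1, was marked mainly at one end. Ccl1, a T cell-derived ligand of Ccr8, had 4.38 and 4.25 CPM per kb in Suz12 cKO, against 3.77 and 3.0 in wild type (0.34 ± 0.19, adjusted p = 0.345). Ccl2, the main attractant of inflammatory monocytes, had 16 and 8 counts in Suz12 cKO and 10 and 3 in wild type, with overlapping groups (0.41 ± 0.64, adjusted p = 0.798). Between them Ccl12 and Ccl8 had at most 4 counts in any library. Ccl7, a monocyte attractant like Ccl2, had 3 and 1 counts in Suz12 cKO and 10 and 3 in wild type. The ratio of its summed counts, each over the summed library totals of its genotype, was 0.211, with an exact 95% interval of 0.0502 to 0.684 that covers counting error only. Ccl7 did not pass the filter and was not tested. It is 1 of 24 untested members for which such an interval was computed. The interval leaves out the spread between its wild-type libraries, at 10 and 3 counts.

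**Figure D4:**
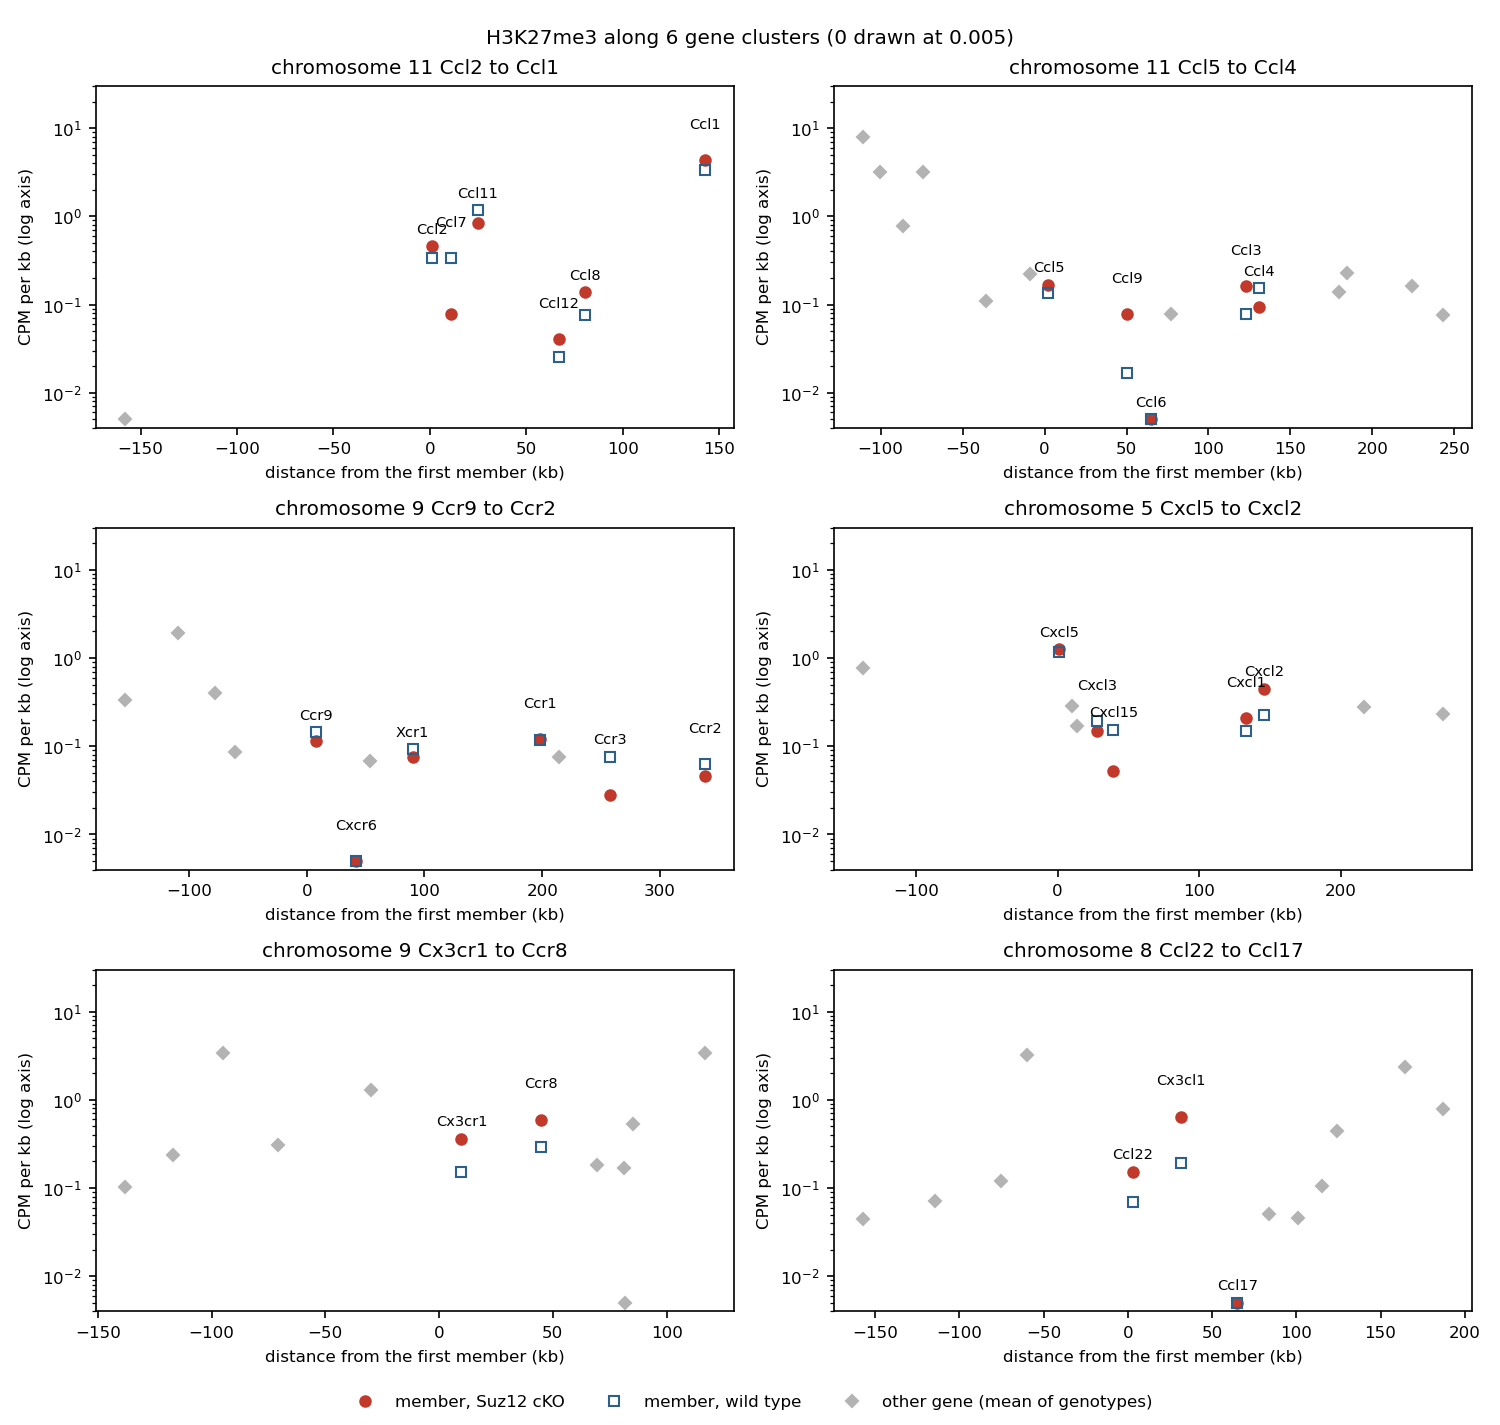
H3K27me3 in CPM per kb (log axis) along 6 chemokine and receptor clusters, by distance in kb from the first member of each; circles are Suz12 cKO means, squares wild-type means and grey diamonds other genes. On chromosome 11 the mark is high at Ccl1 (4.31 in Suz12 cKO, 3.39 in wild type) and low over Ccl12 and Ccl8, and the receptors from Ccr9 to Ccr2 on chromosome 9 are low throughout.

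Counts were low in the other inflammatory clusters. Ccl3, Ccl4, Ccl5, Ccl6 and Ccl9, the macrophage inflammatory protein cluster of chromosome 11, had at most 7 counts in any library. By the reference, their windows are overlapped by 22.0% (Ccl9) to 100% (Ccl6), so these counts do not show that the genes carried little mark. Ccl3, overlapped by 89.6%, had 1.56 CPM per kb of unshared window in Suz12 cKO and 0.745 in wild type. The deposited Ccl4 window is 8100 bp long, against 22060 bp by the reference, so the overlap of Ccl3 and its level per unshared kb are uncertain. The neutrophil attractant Cxcl1 had 7 and 4 counts in Suz12 cKO, against 6 and 0 in wild type. Its relative Cxcl2 had 13 and 11 in Suz12 cKO and 7 and 2 in wild type, a ratio over library totals of 1.83 (95% interval 0.821 to 4.47). Cxcl3 had 5 counts or fewer in any library. Cxcl15, the lung-enriched member, had 4 and 1 counts in Suz12 cKO and 8 and 3 in wild type (ratio 0.312, interval 0.085 to 0.974; with TMM-scaled library sizes, a choice made after seeing the data, 0.323, 0.0881 to 1.01). The exception in that cluster was Cxcl5, a neutrophil attractant made by lung epithelium. Cxcl5 had 1.47 and 1.05 CPM per kb in Suz12 cKO and 1.26 and 1.10 in wild type (0.09 ± 0.35, adjusted p = 0.936). The platelet chemokine genes between Cxcl5 and Cxcl3 were not tested either: Ppbp had 13 and 6 counts in Suz12 cKO and 5 and 2 in wild type, and Pf4 had 3 and 6 in Suz12 cKO and 3 and 2 in wild type.

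Receptors spanned the full range. Cxcr3, the receptor of the interferon-induced ligands on T and NK cells, had the highest mean level of all members, at 10.5 and 10.4 CPM per kb in Suz12 cKO and 10.4 and 8.08 in wild type. It did not differ detectably between genotypes (0.17 ± 0.13, 95% interval -0.09 to 0.43, adjusted p = 0.542). Its ligand Cxcl9 had 8 and 6 counts in each genotype, and Cxcl10 and Cxcl11 had 0, in windows wholly overlapped by others. Ccr7, which takes dendritic cells and naive T cells to lymph nodes, had 3.64 and 4.14 CPM per kb in Suz12 cKO and 2.67 and 3.20 in wild type. Its log2 fold change of 0.41 ± 0.15 (95% interval 0.11 to 0.72) had an adjusted p of 0.0891. Ccr4, a receptor of skin-homing and Th2 cells, had 1.30 and 1.17 CPM per kb in Suz12 cKO and 1.65 and 1.65 in wild type (-0.42 ± 0.27, adjusted p = 0.423), and it lies 5.8 kb from Trim71 at the 96.0th percentile.

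Cxcr5 and Ccr6 were low and not called. Cxcr5, which takes B cells into follicles, had 0.356 and 0.241 CPM per kb in Suz12 cKO, against 0.244 and 0.288 in wild type (0.16 ± 0.47, adjusted p = 0.909). Ccr6, a receptor of B cells and Th17 cells, had 0.214 and 0.269 in Suz12 cKO and 0.143 and 0.203 in wild type (0.50 ± 0.48, adjusted p = 0.643). The receptors from Ccr9 to Ccr2 on chromosome 9 were lower still: none passed the filter, and none had more than 9 counts in any library. This stretch holds Ccr2 and Ccr1, receptors of monocytes and macrophages, and Xcr1, a receptor of cross-presenting dendritic cells. Ccr2 had 2 and 2 counts in Suz12 cKO and 3 and 1 in wild type. Ccr1 had 6 and 4 in Suz12 cKO and 4 and 3 in wild type. Cxcr2, the neutrophil receptor, had 1 and 1 counts in Suz12 cKO and 1 and 0 in wild type, and its neighbour Cxcr1 had 9 and 2 in Suz12 cKO and 1 and 4 in wild type. These counts are too few for a comparison of genotypes.

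The atypical receptors did not differ detectably. Ackr2, a scavenger of inflammatory CC chemokines, had 1.96 and 2.23 CPM per kb in Suz12 cKO, against 2.25 and 1.99 in wild type (-0.02 ± 0.18, 95% interval -0.38 to 0.33, adjusted p = 0.966). Ackr1, the chemokine-binding protein of red cells and venules, had 2.17 and 2.65 in Suz12 cKO and 2.09 and 2.64 in wild type (0.04 ± 0.26, adjusted p = 0.965). In both, as in Ackr3, the groups overlapped. Ccrl2, which binds chemerin, had 7 and 3 counts in Suz12 cKO and 4 and 4 in wild type, and Ackr4, a scavenger of Ccl19 and Ccl21, had 0 and 3 in Suz12 cKO and 0 and 2 in wild type. By the reference, 99.9% of the Ackr1 window is overlapped, but the deposited window of its neighbour Cadm3 is 2.8 kb shorter than that reference.

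In all, 31 members did not pass the filter. They held 113 and 74 counts in Suz12 cKO, against 93 and 57 in wild type, a ratio over library totals of 0.856 (exact 95% interval 0.686 to 1.07, counting error only). No count was seen in any library at 7 members: Cxcl10, Cxcl11, Cxcl17, Ccl17, Cxcr6, Ccl6 and Ccr10. In 6 of these 7 (not Ccl17) the window lies wholly within others. Across all genes, 67.1% of 2446 such windows had 0 counts in all libraries, against 1.27% of 10808 windows with no overlap. The 8 wholly overlapped members had at most 3 counts in a library, so their 0 counts are no evidence of an unmarked gene. Leaving out the 21 members with more than 10% overlap raised the median level to 0.530 CPM per kb in Suz12 cKO and 0.341 in wild type.

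Promoters were found for 47 of the 63 members. Where a gene had several, in the family or outside it, the one with the most CpGs was counted. The members had a median of 5 CpGs in 300 bases, against 14 over 18458 genes with a promoter. A count of 10 or more CpGs (the letters CG, the same on both strands) stood in 14 members (29.8%), against 58.8% of all genes. Of the 6 members above the 90th percentile of the mark that had a promoter, 4 (Cxcr3, Ccl1, Ackr3 and Ackr1) had under 10 CpGs, as did 36.7% of the 1890 genes so placed. Spearman's rho between CpG count and level was 0.399 over the 47 members and -0.197 over all 18458 genes, as a description. The points share libraries, and members of a cluster share sequence. The 2 richest promoters, of Ccl25 and Ccl21b, belong to genes at the 51.0th and 88.7th percentiles of the mark over all windows. The start listed for Ccl21b may lie outside its deposited window. The reference span of Ccl25 lies 0.1 kb from that of Elavl1, and whether its CpGs belong to a shared promoter was not tested.

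**Figure D5:**
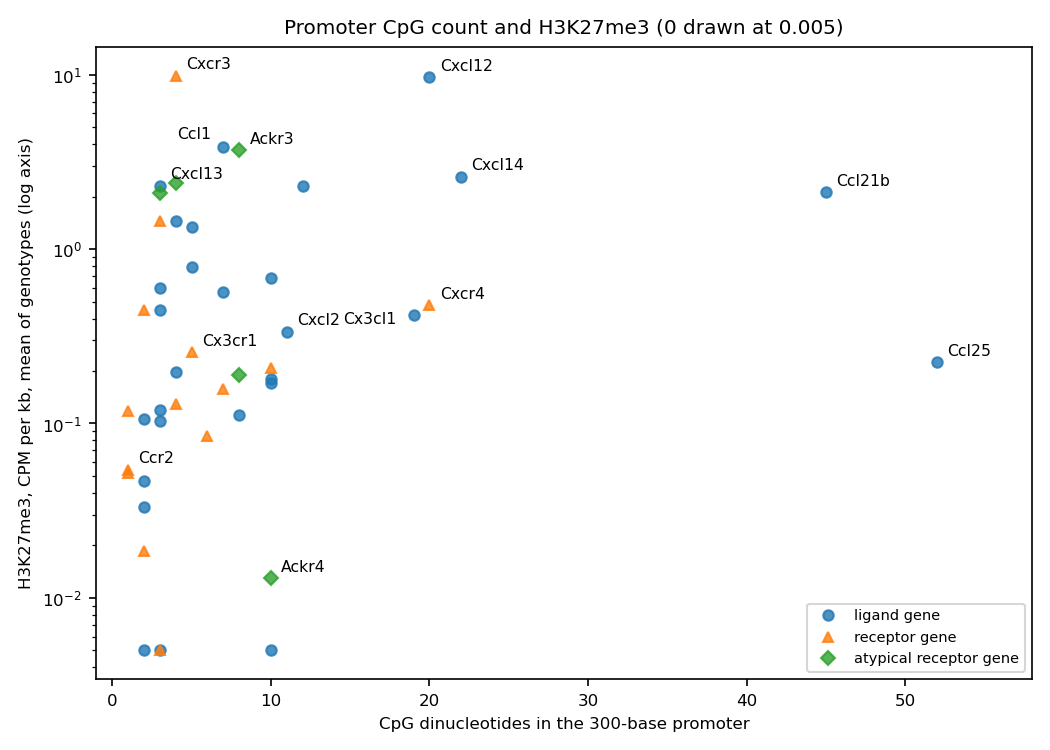
H3K27me3 (CPM per kb, mean of genotypes, log axis) against the number of CpG dinucleotides in the 300-base promoter for 47 members, with circles for ligands, triangles for receptors and diamonds for atypical receptors. Cxcr3 has 4 CpGs and Cxcl12 20, yet both lie near 10 CPM per kb.

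Genes that carry the signal inside the cell were examined as a list of 46, from G protein subunits and receptor kinases to arrestins and cytoskeletal regulators. Of 39 tested, 3 gained the mark and 1 lost it, against 4.46% and 1.96% of all genes, so that the counts of calls show nothing particular to the list. Gng2, a G protein gamma subunit, had 150 and 145 counts in Suz12 cKO, against 23 and 21 in wild type (2.25 ± 0.25, edgeR adjusted p = 4.02e-15). Its level nevertheless reached only 0.398 CPM per kb in Suz12 cKO, against 0.0837 in wild type. Grk3, a kinase that desensitises receptors, had 79 and 99 counts in Suz12 cKO and 36 and 26 in wild type (1.03 ± 0.26, adjusted p = 0.00325). Arrb1, which encodes beta-arrestin 1, had 166 and 180 counts in Suz12 cKO and 85 and 78 in wild type (0.59 ± 0.18, adjusted p = 0.0192). Elmo1, which with Dock2 activates Rac downstream of chemokine receptors, had 148 and 112 counts in Suz12 cKO and 135 and 136 in wild type, and fell by 0.55 ± 0.17 on the log2 scale (adjusted p = 0.0227). The calls of Grk3, Arrb1 and Elmo1 each ended when 1 library was left out, with adjusted p up to 0.136, 0.195 and 0.557.

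Over the whole signalling list, relative to the library, 30 of the 39 tested values were negative and the median was -0.25, against -0.01 over all tested genes. Both Suz12 cKO libraries stood below both wild-type libraries at 19 of the 39 and above both at 7. Over all tested genes 23.8% were separate in each direction. Levels of the signalling list were low, with medians of 0.127 CPM per kb in Suz12 cKO and 0.141 in wild type. A list of 48 broadly expressed housekeeping genes, also low at 0.0795 and 0.0804, had a median of -0.56 over 15 tested genes. Per 1000000 counts, that list held 166 and 136 in Suz12 cKO, against 195 and 197 in wild type. The part of this difference in the signalling values was not tested. Of 28 related chemoattractants and receptors outside the rule, 13 were tested. Of these, 0 gained the mark and 1, Cmtm4, lost it, against 4.46% and 1.96% of all tested genes. Cmtm4 had 41 and 34 counts in Suz12 cKO and 46 and 52 in wild type (-0.88 ± 0.28, edgeR adjusted p = 0.0378). With housekeeping scaling it was not called (edgeR adjusted p = 0.245). Without 1 library its log2 fold change ran from -1.08 to -0.67.

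Markers of other cell types were set beside these results, since several members are lymphoid or stromal genes. The alveolar macrophage list of 23 genes was low in the mark, at a median of 0.116 CPM per kb in Suz12 cKO and 0.139 in wild type, and edgeR called 0 of its 12 tested genes (1 at an unadjusted p below 0.05). Those 12 had a median log2 fold change of 0.33, with 9 positive and 7 separate above wild type. Over all tested genes the median was -0.01, 8097 of 16752 were positive and 23.8% were separate above wild type. In the alveolar macrophage list Plet1 was at 0 in all libraries, in a window 95.1% overlapped. T and NK genes stood at 0.751 in Suz12 cKO and 0.645 in wild type, B and plasma cell genes at 0.975 and 0.958, and endothelial and mesenchymal genes at 2.43 and 2.35. Granulocyte and monocyte genes stood at 1.30 and 1.32, dendritic cell genes at 0.735 and 0.615, and epithelial genes at 1.61 and 1.74. Per 1000000 counts, the sums ran from 272 to 280 in Suz12 cKO and 258 to 285 in wild type for T and NK genes, and from 334 to 341 in Suz12 cKO and 280 to 302 in wild type for granulocyte and monocyte genes. Gains were called at 2 of 11 tested granulocyte and monocyte genes (Vcan and Ly6c2), 1 of 7 dendritic, 1 of 10 epithelial and 1 of 11 endothelial and mesenchymal genes, against 4.46% of all tested genes. The part of any other cell type in the members' values was not tested.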

How the data were processed

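The deposited table holds raw counts for each gene window in each of 4 libraries, with the window length in bp. The submitters' processing notes name mm10 and featureCounts. No source used here gives the aligner, the treatment of duplicates or the options of the counter. Where window lengths match the reference they equal the gene plus 3 kb on each side. Symbols came from the GRCm38.p6 RefSeq table (25204 IDs, 93.0%). The deposited window length equals the reference span with its flanks for 36 of the 63 members, and overlaps are approximate for the others. Of the family in the reference, 4 genes have no row in the count table and were not analysed here.

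Counts were tested with edgeR 4.0.16 under R 4.3.3 (filterByExpr, TMM, estimateDisp, glmQLFit, glmQLFTest, genotype as the only term, two-sided, Benjamini-Hochberg over 16752 genes). SE is the log2 fold change divided by the square root of F, and intervals are at 95%. The test was tested on simulated data with 50 genes changed at each of several sizes. It called 26% of the 1.5-fold, 46% of the 2-fold, 76% of the 3-fold and 92% of the 4-fold changes. Of its 122 calls there, 2 were false. Low-count ratios carry exact intervals from the counts, which cover counting error only. DESeq2 1.42.0, other scalings, filters, thinning, a replicate block and leaving out each library were tried. Replicates differed beyond sampling noise (chi-square per degree of freedom 1.73 in Suz12 cKO and 1.84 in wild type, against 3.10 to 3.47 between genotypes). Named genes are the called members, the 5 highest and 5 lowest tested members, called signalling genes and a list of well-known members. In each cluster the member of highest level and the member of lowest unadjusted p were named, and other members within their cluster. Neighbouring genes were named after their values were seen. The members and lists were chosen with earlier results of these data known. The values of 1 member are not reported here.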

Additional observations from a re-analysis of the deposited data

How the results depend on the processing

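Cx3cl1 remained called under every scaling and count filter, under thinning and with the replicate block, and was not called without Suz12 cKO replicate 2 or without wild-type replicate 2. DESeq2 gave it no adjusted p. Of the 3 members called, 1 was left without a count filter and 1 under thinning, with 0 lost in either. There were 0 by DESeq2 (0 gained and 0 lost, with the adjusted p missing for 17 of 32), where 4 had an unadjusted p below 0.05 by DESeq2 and 8 by edgeR. Housekeeping scaling called 5, all 5 gained (Ccl28, Ccr7, Cx3cl1, Cx3cr1 and Cxcl14) with 0 lost, and leaving out 1 library called 0 to 1, 0 to 1 of them gained and 0 lost. Same-numbered libraries shared no detectable deviation (correlation 0.00844), and no source used here says whether they were paired. The replicate block left 1 lost member, Ccl21b, with Ccl27a at an edgeR adjusted p of 0.0558. Leaving out members overlapped by over 10%, or the chromosome 4 cluster, both chosen after seeing the data, left 1 and 0 lost. Over all genes, 376 were called by DESeq2 (324 gained, 52 lost) and 453 to 1012 without 1 library (361 to 772 gained, 92 to 240 lost). Upper-quartile factors gave 494 gained and 519 lost, and housekeeping scaling 1380 and 50. The gained share of calls was 69.4% with TMM factors, 55.7% with library totals, 48.8% with upper-quartile factors, 96.5% with housekeeping scaling, 86.2% by DESeq2 and 79.7% without Suz12 cKO replicate 2. Over the signalling and related lists together, 5 genes were called (3 gained, 2 lost, Elmo1 and Cmtm4). This count was 1 by DESeq2 (1 gained, 0 lost) and 1 to 7 without 1 library (1 to 4 gained, 0 to 3 lost). Housekeeping scaling gave 5 gained and 0 lost, upper-quartile factors 4 lost and no filter 1 lost. The ligand median became 0.35 and the receptor median 0.48 with housekeeping scaling, and without 1 library they ran from -0.16 to 0.13 and from 0.07 to 0.28. Per kb of unshared window the median level was 0.447 in Suz12 cKO and 0.333 in wild type. Joining members at 1000 kb also gave 31 places.

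Signs reversed at uncalled members. Housekeeping scaling turned Ackr3 to 0.20, Cxcr4 to 0.14, Ccl19-ps1 to 0.0751, Ccl19 to 0.18 and Ackr2 to 0.32. It moved the median of all genes by 0.33, and relative to that shift none of these 5 reversed. Library totals and upper-quartile factors gave Ackr1 -0.0211 and -0.0503 and Cxcl13 -0.0291 and -0.0574. A mean of 20 counts gave Cxcl13 -0.0032, and thinning gave Cxcl13 -0.0358, Cxcl5 -0.0466 and Ccr6 -0.0107. Without 1 library the values ran from -0.30 to 0.0323 for Ackr3, -0.61 to 0.36 for Cxcr4, -0.14 to 0.21 for Ackr1, -0.50 to 0.0732 for Ccl19-ps1, -0.57 to 0.50 for Ccl19, -0.86 to 0.16 for Ccl21a, -0.17 to 0.31 for Cxcl5, -0.28 to 0.37 for Cxcl13, -0.14 to 0.42 for Cxcr5, -0.12 to 0.0700 for Ackr2 and -0.21 to 1.36 for Ccl2. The cause of these changes was not tested. With 2 libraries per genotype and under 10 counts at many members, changes there were not detectable at this depth.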
